A study of Homo sapiens with 16 samples.

Results

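The genes described are 35 epithelial adhesion and junction genes. They belong to adherens junctions, desmosomes, tight junctions and gap junctions, or are EPCAM, the membrane protease matriptase and its inhibitors. The genes were chosen by symbol from the makeup of these structures, with earlier results of these data known. They were followed in OVCAR3, an established human ovarian carcinoma cell line, on Affymetrix U133A arrays, on which 11963 genes had a probe set assigned to that gene alone. Of the 35 genes, 31 had such a probe set, and 27 had a mean log2 signal of at least 7.53, the 40th percentile of all genes and equivalent to a signal of about 169, so that they were among the 7178 genes tested. By class, 7 of 10 adherens junction genes, 6 of 7 desmosome genes, 9 of 12 tight junction genes, 4 of 4 genes of the EPCAM and matriptase group and 1 of 2 gap junction genes were tested. Each gene was read from 1 probe set, the one with the highest mean signal over the 12 arrays.

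Epithelial cells are held together by adherens junctions, in which cadherins bind the same protein on the neighbouring cell and are tied through catenins to actin. Desmosomes are built from desmosomal cadherins that plakophilins, plakoglobin and desmoplakin anchor to keratin filaments, while tight junctions, built of claudins and occludin on a scaffold of zonula occludens proteins, seal the space between cells. Gap junction channels are made of connexins, and 1,25(OH)2D3, the active hormone made from vitamin D, regulates transcription through a nuclear receptor.

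Cells had received ethanol vehicle alone or 1,25(OH)2D3 for 8, 24 or 72 h, with 3 independent experiments in each group. The hormone was added at staggered times so that every culture met ethanol for as long as the others and was collected with them, and the 0 h samples are therefore vehicle cultures. The dose is given as 0.1 pM, and the medium, shared by all groups, held 15% fetal bovine serum and bovine insulin. A further set of 4 U95 arrays, 1 for each time, came from an earlier run with no replicate.

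The signals were MAS5 intensities scaled to a common trimmed mean of 500.2 on each array, with array medians between 168 and 196, and pairs of arrays correlated between 0.959 and 0.978. The vitamin D 24-hydroxylase gene CYP24A1, a textbook target of the receptor, was higher than in vehicle by 5.65 log2 units at 8 h, 5.86 at 24 h and 5.89 at 72 h (limma, adjusted p = 1.7e-07, 3.3e-08 and 1.3e-08). All 7 markers of ovarian epithelial carcinoma were above the filter, with a summed signal of 36208.9 to 41999.3 in vehicle, 37352.4 to 41822.1 at 8 h, 35072.9 to 38755.3 at 24 h and 38905.5 to 42297.3 at 72 h. None of the 4 leukocyte markers with a probe set, none of 5 endothelial markers and 3 of 8 fibroblast markers were above it. The 3 were COL1A1, DCN and THY1, and the summed fibroblast markers stayed between 1151.8 and 1493.4 on the 12 arrays. Individual epithelial markers did differ: WT1 was higher by 0.97, 1.00 and 1.05 log2 units at 8, 24 and 72 h, KRT7 by 0.48 at 72 h, KRT18 was lower (-0.50 at 24 h and -0.37 at 72 h) and PAX8 was lower (-0.37 at 24 h), each with an adjusted p of at most 0.023. The KRT7 call was lost with its probe sets averaged (adjusted p = 0.14) and the PAX8 call with median centring (0.069). The KRT18 call at 72 h was lost under 7 of 23 alternatives (adjusted p up to 0.11), among them leaving out vehicle array 2 or 3 or 72 h array 2 or 3. The part of these markers in the junction gene values was not tested.

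At 72 h, 5 junction genes passed the test against vehicle. E-cadherin (CDH1), plakophilin-2 (PKP2), desmoplakin (DSP) and claudin-10 (CLDN10) were higher and the connexin gene GJA1 was lower, with fold differences between 1.27 for DSP and 1.72 for PKP2. At 24 h, CDH1 and PKP2 had already passed, and at 8 h no junction gene had. The other 22 tested genes passed in no single comparison with vehicle, which does not show that they were unchanged. In numbers, 0 of 27 genes passed an adjusted p of 0.05 at 8 h (limma, 5 with an unadjusted p under 0.05), beside 0.780% of all 7178 genes. At 24 h, 2 of 27 passed, both higher (7.41%, against 4.08% of all genes, of which 2.47% higher). At 72 h, 5 of 27 passed, 4 higher and 1 lower (18.5%, against 6.84% of all genes, 3.86% higher and 2.98% lower). The median log2 difference of the 27 genes was 0.01 at 8 h, 0.06 at 24 h and 0.08 at 72 h, beside 0.00, -0.02 and -0.01 over all genes tested. The 3 comparisons share the same vehicle arrays. The genes were chosen with earlier results of these data known, which limits what the shares set against all genes can show.

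**Figure D1:**
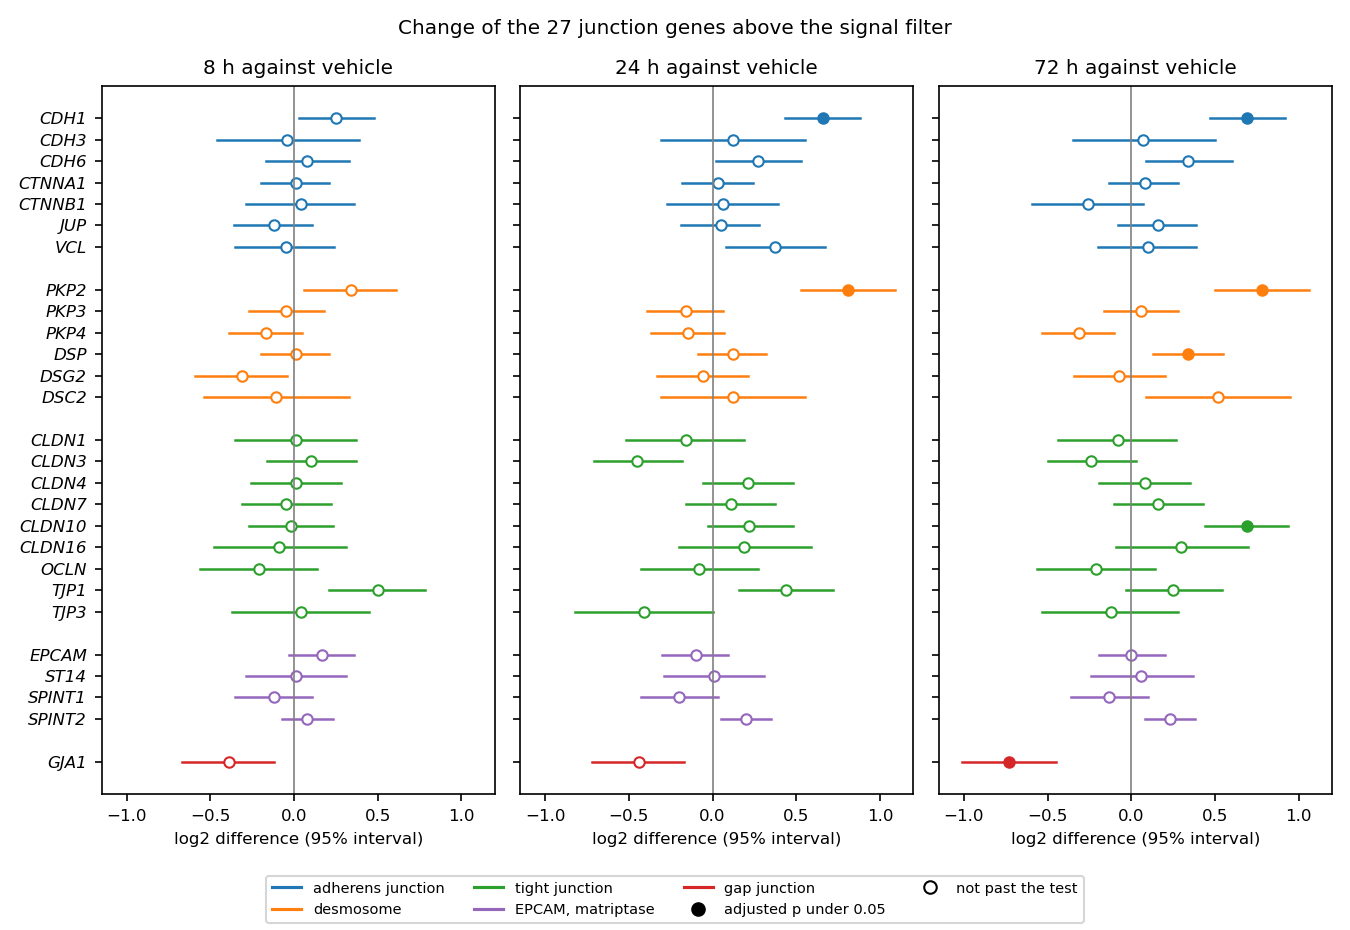
Log2 difference from vehicle (x axis, with 95% confidence intervals) of each of the 27 tested junction genes at 8, 24 and 72 h, grouped by junction class, with genes past an adjusted p of 0.05 filled. CDH1 and PKP2 pass at 24 and 72 h, DSP and CLDN10 at 72 h, and GJA1 lies below 0 at all 3 times and passes at 72 h.

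Promoter sequence from RefSeq (GRCh38.p14) was matched for 23 of the 35 genes, in 39 windows of 300 bases (CDH1 and PKP2 were among the 12 with no entry). It is shown for the genes with an entry that passed a single comparison with vehicle, so that their start regions can be compared. CLDN3, called by the F test alone, is not shown, and its window held 1 copy of the CAGGTG motif described next. CAGGTG, the E-box bound by the Snail and ZEB repressors of CDH1, was searched on both strands and stood in 13 of 39 windows (33.3%) of 12 genes, against 20.6% of all 35116 windows. The vitamin D receptor half-site AGGTCA was in 20.5% of the junction gene windows and 13.8% of all windows, and the half-site GGTTCA in 2.6% and 8.6%, both strands being searched. Each line gives the 250 bases before a transcription start, 5′ to 3′ on the + strand, with CAGGTG in capitals: DSP at chr6:7541421-7541670, the upstream start of CLDN10 at chr13:95433505-95433754, its downstream start at chr13:95552470-95552719, and GJA1 at chr6:121435396-121435645.
DSP: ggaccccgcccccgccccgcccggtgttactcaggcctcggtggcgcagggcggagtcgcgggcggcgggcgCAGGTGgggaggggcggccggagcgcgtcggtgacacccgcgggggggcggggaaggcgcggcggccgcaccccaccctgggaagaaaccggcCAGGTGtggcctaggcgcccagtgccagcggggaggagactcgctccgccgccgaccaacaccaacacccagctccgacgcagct
CLDN10 upstream start: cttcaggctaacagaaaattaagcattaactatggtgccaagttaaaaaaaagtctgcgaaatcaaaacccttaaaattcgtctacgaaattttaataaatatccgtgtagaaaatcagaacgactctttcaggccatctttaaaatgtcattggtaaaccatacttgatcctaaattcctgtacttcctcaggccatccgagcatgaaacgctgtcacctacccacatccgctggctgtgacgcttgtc
CLDN10 downstream start: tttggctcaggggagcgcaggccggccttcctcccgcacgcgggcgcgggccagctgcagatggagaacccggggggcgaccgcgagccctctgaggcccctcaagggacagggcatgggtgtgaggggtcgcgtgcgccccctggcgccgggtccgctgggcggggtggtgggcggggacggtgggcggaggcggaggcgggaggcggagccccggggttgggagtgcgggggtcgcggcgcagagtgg
GJA1: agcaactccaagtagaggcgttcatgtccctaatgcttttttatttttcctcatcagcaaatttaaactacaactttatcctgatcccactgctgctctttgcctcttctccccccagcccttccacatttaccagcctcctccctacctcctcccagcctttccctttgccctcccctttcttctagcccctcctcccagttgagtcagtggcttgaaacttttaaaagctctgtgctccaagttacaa
The DSP window held 2 copies of CAGGTG and was 78.0% G or C. The other 3 windows held none, and the 2 starts of CLDN10 differed in base composition, at 39.6% G or C upstream and 78.0% downstream. A match is a description of the sequence alone.

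Among the adherens junction genes tested, CDH1 rose and no other passed against vehicle. CDH1, the cadherin that defines epithelial adherens junctions (chr16:68737292-68835537, GRCh38.p14), had signals of 2351, 2610.1 and 1968 on the vehicle arrays, 2608, 2965 and 2657 at 8 h, 3511, 3784 and 3587 at 24 h, and 3516, 4098 and 3563 at 72 h. Every 24 h and 72 h array was above every vehicle array, while the 8 h arrays overlapped them. The means were 2310 ± 323 in vehicle, 2744 ± 193 at 8 h, 3628 ± 141 at 24 h and 3726 ± 324 at 72 h (SD, n = 3). Against vehicle, CDH1 was higher by 0.66 log2 units at 24 h (SE 0.11, 95% confidence interval 0.43 to 0.88, adjusted p = 0.0013), or 1.58-fold. At 72 h it was higher by 0.69 (0.47 to 0.92, adjusted p = 0.00054), or 1.62-fold. At 8 h the difference was 0.25 (adjusted p = 0.61). A second, dimmer CDH1 probe set differed by 0.16, 0.47 and 0.47 at the 3 times.

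The partners of E-cadherin gave small differences. Vinculin (VCL), which joins the cadherin and catenin complex to actin, averaged 4300 ± 435 in vehicle, 4150 ± 549 at 8 h, 5611 ± 945 at 24 h and 4621 ± 674 at 72 h, and its 24 h difference of 0.37 did not pass (SE 0.14, adjusted p = 0.18). With the mean of both VCL probe sets in place of the brighter one, it was 0.59 and passed (adjusted p = 0.024), the second probe set being very dim at 15.8 in vehicle. The α-catenin gene CTNNA1 differed by 0.01, 0.03 and 0.08 at 8, 24 and 72 h, and the β-catenin gene CTNNB1 by 0.04, 0.06 and -0.26. One 24 h array set CTNNB1 apart, at 1691 against 959 and 1147 on the other 24 h arrays. Plakoglobin (JUP), a catenin shared with desmosomes, differed by -0.12, 0.05 and 0.16. Of the other classical cadherins, P-cadherin (CDH3) lay between -0.04 and 0.12, and CDH6, a cadherin of kidney and of ovarian carcinoma, was higher by 0.08, 0.27 and 0.34 without passing (adjusted p = 0.11 at 72 h). Without the second 72 h array, CDH6 was higher at 72 h by 0.48 and passed (adjusted p = 0.019), and its 5 probe sets ranged from -0.33 to 0.34 at 72 h. The 95% intervals of the 6 adherens junction genes not past the test at 72 h ran from -0.59 for CTNNB1 to 0.60 for CDH6.

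N-cadherin (CDH2), the cadherin of mesenchymal and neural cells, and the kidney cadherin CDH16 were under the filter and were not tested. CDH2 had a mean of 104 in vehicle, 83.1 at 8 h, 121 at 24 h and 116 at 72 h. Its second probe set averaged 21.1, 28.8, 38.8 and 103 in the same order, and the 2 probe sets thus gave 72 h differences of 0.15 and 1.72. CDH16 stayed between 5.05 and 28.8 on all 12 arrays. CTNND1 (p120-catenin) had no probe set of its own, its 3 probe sets being shared with a readthrough gene.

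**Figure D2:**
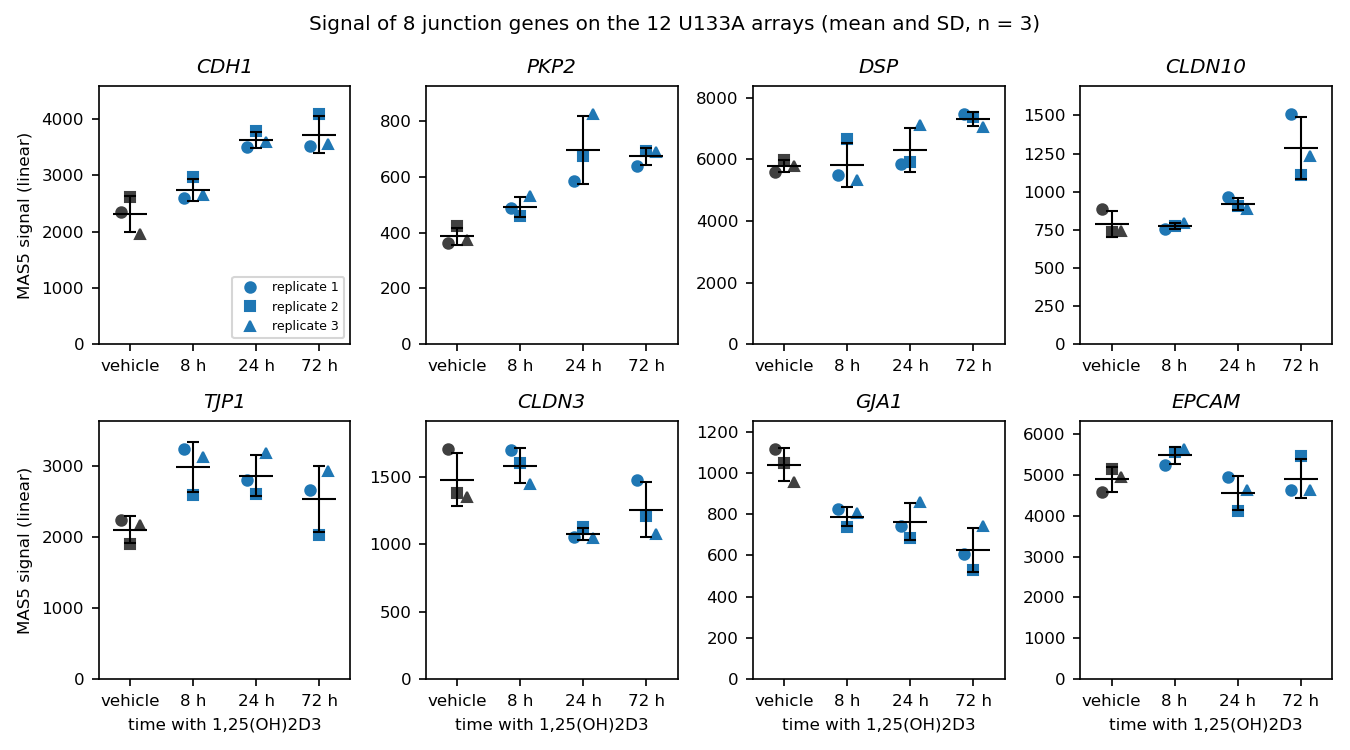
MAS5 signal (y axis, from 0) on each of the 12 arrays for 8 junction genes in vehicle and after 8, 24 and 72 h of 1,25(OH)2D3 (x axis). Points are arrays, with a shape for each replicate number, and lines are group means with their SD (n = 3). CDH1 and PKP2 stand above vehicle on every 24 h and 72 h array, CLDN10 and DSP on every 72 h array, and GJA1 below it on every treated array.

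Of the desmosome genes, PKP2 and DSP were higher and passed against vehicle, and the other 4 tested genes did not pass. PKP2, a plakophilin that connects desmosomal cadherins to desmoplakin (chr12:32790755-32896777), had signals of 363, 422 and 373 in vehicle, 487, 460.2 and 529 at 8 h, 584, 673 and 825 at 24 h, and 638, 692 and 689.8 at 72 h. All 9 treated arrays were above all 3 vehicle arrays. The means were 386 ± 31.3 in vehicle, 492 ± 34.7 at 8 h, 694 ± 122 at 24 h and 673 ± 30.7 at 72 h (SD, n = 3). PKP2 was higher than in vehicle by 0.81 log2 units at 24 h (SE 0.13, adjusted p = 0.0013, 1.75-fold) and by 0.78 at 72 h (SE 0.13, adjusted p = 0.0012, 1.72-fold). At 8 h it was higher by 0.34 without passing (adjusted p = 0.50). Its second probe set, with a mean of 109 in vehicle, differed by 0.29, -0.09 and 0.62, and averaging both probe sets gave a 24 h difference of 0.36, which did not pass (adjusted p = 0.46).

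DSP, the plakin that ties the desmosome to keratin filaments (chr6:7541671-7586714), had signals of 5574, 5964 and 5767 in vehicle, 5499.8, 6640.4 and 5327 at 8 h, 5849, 5900.4 and 7109 at 24 h, and 7477, 7381 and 7052 at 72 h. The 72 h arrays were the only group to lie wholly above vehicle. The 72 h difference was 0.34 log2 units (SE 0.10, 95% confidence interval 0.13 to 0.55, adjusted p = 0.046), or 1.27-fold. This call was close to the threshold and was lost under 13 of 23 alternatives, with an adjusted p of up to 0.15. Among them were leaving out any vehicle or 72 h array, 8 h array 1 or 3 or 24 h array 1. The single U95 arrays gave DSP the opposite sign at 72 h, with a log2 ratio of -0.29.

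The desmosomal cadherins DSG2 and DSC2 gave no call. DSG2 was lower at 8 h (-0.31, adjusted p = 0.58), with no overlap between the groups, and differed by -0.06 and -0.07 at 24 and 72 h. DSC2 differed by -0.11, 0.12 and 0.52, its 72 h arrays at 923, 960.3 and 671 against 615, 674 and 478 in vehicle overlapping by 1 array (adjusted p = 0.16). Its second probe set differed by -0.47, -0.38 and 0.19. Of the other plakophilins, PKP3 lay between -0.16 and 0.06, and PKP4 was lower at all 3 times, by 0.31 log2 units at 72 h with no overlap (log2 difference -0.31, adjusted p = 0.085). DSC3 was under the filter, at a mean log2 signal of 7.12, with group means of 122 in vehicle, 112 at 8 h, 116 at 24 h and 150.3 at 72 h.

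Among the tight junction genes, CLDN10 rose at 72 h and the other 8 did not pass in any single comparison with vehicle. CLDN10, a claudin that forms paracellular ion channels (chr13:95433755-95579759), had signals of 889, 734 and 744 in vehicle, 759, 773 and 793 at 8 h, 965, 908 and 889 at 24 h, and 1512, 1111 and 1237 at 72 h. Every 72 h array was above the other 9 arrays. The means were 789 ± 86.9 in vehicle, 775 ± 17.3 at 8 h, 921 ± 39.4 at 24 h and 1287 ± 205 at 72 h (SD, n = 3). CLDN10 was higher than in vehicle at 72 h by 0.69 log2 units (SE 0.12, adjusted p = 0.0016), or 1.61-fold, and by 0.22 at 24 h (adjusted p = 0.43).

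CLDN3, a sealing claudin abundant in ovarian carcinoma, had signals of 1711, 1379 and 1352 in vehicle, 1700.2, 1603 and 1445 at 8 h, 1057, 1126 and 1043 at 24 h, and 1478, 1210.3 and 1078 at 72 h. The 24 h arrays were below all vehicle and all 8 h arrays. CLDN3 passed the F test over the 3 times (adjusted p = 0.044), a call lost under 14 of 22 alternatives (adjusted p up to 0.15), among them leaving out any vehicle, 8 h or 24 h array or 72 h array 2. Its single differences of 0.10, -0.45 and -0.24 did not pass (adjusted p = 0.058 at 24 h). Its second probe set differed by 0.24, -0.23 and -0.25.

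The zonula occludens scaffold gene TJP1 had signals of 2246, 1897 and 2176 in vehicle, 3248, 2586 and 3129 at 8 h, 2803, 2612 and 3186 at 24 h, and 2664, 2025 and 2927 at 72 h. All 8 h and 24 h arrays were above all vehicle arrays, and the 72 h arrays overlapped them. The differences of 0.50, 0.44 and 0.25 did not pass (adjusted p = 0.14, 0.086 and 0.31). Its second probe set gave 0.59, 0.48 and 0.17, and the average of both probe sets passed at 8 h (0.54, adjusted p = 0.019) and at 24 h (0.46, adjusted p = 0.018).

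None of the remaining tight junction genes passed against vehicle at any time (limma). CLDN1 lay between -0.16 and 0.01, CLDN4 between 0.01 and 0.21 and CLDN7 between -0.05 and 0.16 over the 3 times. CLDN16, a claudin of renal magnesium transport, reached 0.30 at 72 h (adjusted p = 0.39), with arrays at 1038, 631 and 1116 against 666, 641 and 897 in vehicle. Without the second 72 h array, CLDN16 was higher by 0.56 and passed (adjusted p = 0.044). Occludin (OCLN) differed by -0.21, -0.08 and -0.21, and the scaffold gene TJP3 by 0.04, -0.41 and -0.12 (adjusted p = 0.35 at 24 h). Its 24 h arrays lay below all 3 vehicle arrays, at 146, 142 and 124 against 198, 209 and 157. TJP3 was the dimmest of the 27 genes, at a mean log2 signal of 7.54. CLDN5, the claudin of endothelium, was under the filter with arrays between 10.9 and 29.6. The 95% intervals of the 9 tight junction genes at 24 h, none past the test, ran from -0.82 for TJP3 to 0.72 for TJP1, and those of the 8 not past it at 72 h from -0.56 for OCLN to 0.70 for CLDN16. F11R and CGN had no probe set of their own in the annotation used.

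No gene of the EPCAM and matriptase group passed against vehicle at any time (limma). EPCAM, an epithelial adhesion molecule, averaged 4890 ± 295 in vehicle, 5483 ± 208 at 8 h, 4564 ± 414 at 24 h and 4909 ± 479 at 72 h, for differences of 0.17, -0.10 and 0.00 (SE 0.09, adjusted p = 0.90, 0.71 and 0.99). SPINT2, an inhibitor of matriptase, was higher by 0.08, 0.20 and 0.23 (SE 0.07), with signals of 8784, 9413 and 8861 in vehicle, 9338, 9629 and 9555 at 8 h, 10955, 10232 and 9908 at 24 h, and 10888, 10891 and 10059 at 72 h. The 24 h and 72 h arrays of SPINT2 did not overlap vehicle, and the adjusted p was 0.16 and 0.061. The matriptase gene ST14 differed by 0.01, 0.01 and 0.06, and its other inhibitor SPINT1 by -0.12, -0.20 and -0.13. The 95% intervals of all 4 genes at 72 h lay between -0.36 and 0.38.

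GJA1 was the only one of the 27 junction genes past the test and lower than vehicle. It encodes a connexin of gap junction channels (chr6:121435646-121449727), and its signals were 1119, 1048 and 956 in vehicle, 824, 737 and 804 at 8 h, 742, 685 and 860.4 at 24 h, and 607, 528 and 744 at 72 h. All 9 treated arrays were below all 3 vehicle arrays. The means were 1041 ± 81.8 in vehicle, 788 ± 45.4 at 8 h, 763 ± 89.4 at 24 h and 626 ± 109 at 72 h (SD, n = 3). Against vehicle the log2 difference was -0.39 at 8 h (adjusted p = 0.34), -0.44 at 24 h (adjusted p = 0.076) and -0.73 at 72 h (SE 0.13, 95% confidence interval -1.01 to -0.45, adjusted p = 0.0021), the last 1.66-fold lower. In bulk RNA, fewer cells with the transcript and less transcript per cell cannot be told apart. GJB2, the other connexin gene, had no probe set of its own.

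The F test over the 3 times called 5 of 27 junction genes (5.21% of all genes), CDH1, PKP2, CLDN10, CLDN3 and GJA1. The PKP2 call was lost with its probe sets averaged (adjusted p = 0.19), and the CLDN3 call under most alternatives, as given above. The GJA1 call (adjusted p = 0.015) was lost without the first vehicle array (adjusted p = 0.084) or the second (0.067), and without either of them 3 genes were called. Counting groups that did not overlap, 6 of 27 genes stood apart from vehicle at 8 h, 3 of them higher (13.5% of all genes either way and 6.52% higher). At 24 h 10 did, 6 of them higher (20.5% and 9.35%), and at 72 h 8 did, 5 of them higher (24.4% and 11.7%).

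The treated groups were also compared with each other. Between 72 h and 8 h, 2 of 27 junction genes were higher and none lower (2.49% of all genes either way, 1.37% higher). CLDN10 was higher at 72 h than at 8 h by 0.71 log2 units (SE 0.12, adjusted p = 0.0036), with means of 1287 ± 205 and 775 ± 17.3. CDH1 was higher at 72 h than at 8 h by 0.44 (SE 0.11, adjusted p = 0.037), with means of 3726 ± 324 and 2744 ± 193, a call lost under 12 of 23 alternatives (adjusted p up to 0.15), among them leaving out any 8 h or 72 h array, vehicle array 1 or 24 h array 1. Between 24 h and 8 h, 0 of 27 passed in limma (6 with an unadjusted p under 0.05, 0.599% of all genes passing). The differences of at least 0.40 in size there were -0.55 for CLDN3 (adjusted p = 0.060), 0.47 for PKP2, -0.45 for TJP3, 0.43 for VCL and 0.40 for CDH1 (adjusted p = 0.13). Same-numbered samples of these 2 groups deviated together, though weakly (correlations of 0.111 to 0.155). With the replicate block as an alternative, CDH1 (adjusted p = 0.029) and CLDN3 (adjusted p = 0.014) passed in limma, and 91 genes in all were called, against 43 without it. Between 72 h and 24 h, 0 of 27 passed in limma (3 with an unadjusted p under 0.05, 0.167% of all genes passing). With the block 0 junction genes passed there too, while the calls over all 7178 genes went from 12 to 27. CLDN10 differed there by 0.47 (adjusted p = 0.16), CDH1 by 0.04 (95% confidence interval -0.19 to 0.26) and PKP2 by -0.03 (-0.31 to 0.25).

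The U95 arrays, 1 for each time and without a test, gave the sign in separate arrays for 23 junction genes above the filter on both platforms. The sign was the same as on U133A for 13 of 23 genes at 8 h (56.5%, against 57.6% of the 4167 genes on both), 9 at 24 h (39.1%, against 60.3%) and 15 at 72 h (65.2%, against 64.7%). CDH1 read 1309 in vehicle, 1848 at 8 h, 2518 at 24 h and 2356 at 72 h, higher than vehicle at all 3 times. GJA1 read 596, 480, 356 and 314 in the same order, lower at all 3 times. CLDN10 read 646, 583, 749 and 914, above vehicle at 24 and 72 h. DSP went against U133A, reading 2243 in vehicle, 1484 at 8 h, 2007 at 24 h and 1835 at 72 h, with a 72 h log2 ratio of -0.29. CLDN3 was also opposite at 24 and 72 h, with ratios of 0.29 and 0.12. CLDN4, not called on U133A, read 2123 in vehicle, 3945.9 at 8 h, 3201.1 at 24 h and 3254.5 at 72 h. Its U95 ratios were 0.89, 0.59 and 0.61, beside U133A differences of 0.01, 0.21 and 0.08. PKP2 was under the U95 filter, at 99.8, 106, 165 and 137. Of the genes called on U133A and above both filters, 1 of 1 at 24 h and 3 of 4 at 72 h had the same sign.

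**Figure D3:**
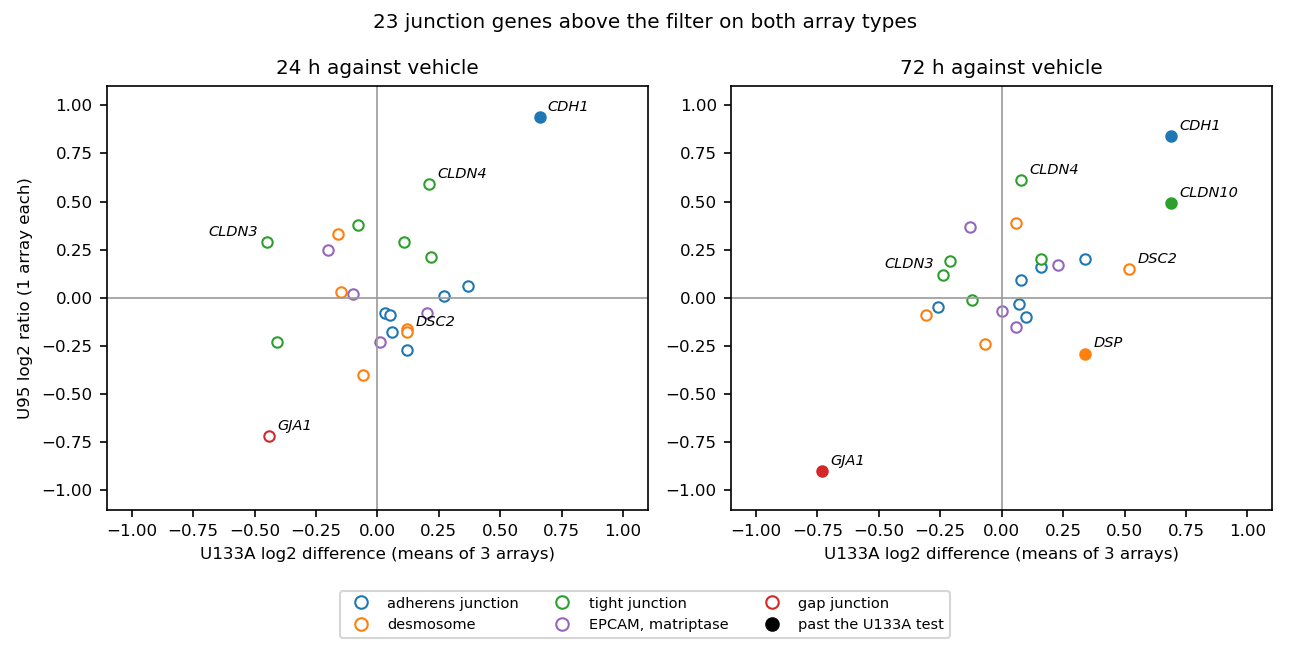
Log2 ratio to vehicle on the single U95 arrays (y axis) against the log2 difference on U133A (x axis) for the 23 junction genes above both filters, at 24 and 72 h, with genes past the U133A test filled. CDH1, CLDN10 and GJA1 lie on the same side of 0 on both axes at 72 h, and DSP is above 0 on U133A and below 0 on U95.

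Further genes of the same structures, outside the 35, were read from separate lists, also chosen with earlier results of these data known. Of 13 further adherens junction genes tested (25 listed), none was higher. At 24 h 1 was lower (7.69%, against 4.08% of all genes called either way, with 116 of 7178 lower). At 72 h 2 were lower (15.4%, against 6.84% either way and 2.98% lower). These were CDH18, a cadherin known mainly from brain (-0.53 at 24 h and -0.55 at 72 h, adjusted p = 0.018 and 0.010), and NECTIN3, a nectin that helps to start adherens junctions (-0.58 at 72 h, adjusted p = 0.0079). CDH18 was lost at both times without vehicle array 3 (adjusted p = 0.10 and 0.061) and at 24 h without vehicle array 1 (0.075) or 24 h array 1 (0.055) or 3 (0.059), and NECTIN3 without vehicle array 1 (0.053). None of 3 further desmosome, 13 tight junction and 2 gap junction genes tested passed against vehicle (limma).

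Outside the cell-cell junctions, 2 of 9 hemidesmosome and integrin genes were higher at 24 and 72 h (22.2%, against 2.47% and 3.86% of all genes). The lists of this paragraph were likewise chosen with earlier results of these data known. The integrin subunit gene ITGB5 averaged 2096 ± 196 in vehicle, 2490 ± 262 at 8 h, 3674 ± 136 at 24 h and 4821 ± 721 at 72 h, higher by 0.81 at 24 h and 1.19 at 72 h (adjusted p = 0.00043 and 5.1e-06). Averaged over its probe sets, the 24 h difference of ITGB5 was 0.17 (adjusted p = 0.57). The tetraspanin CD151, a partner of laminin-binding integrins, was higher by 0.47 and 0.52 (adjusted p = 0.049 and 0.019), calls lost without vehicle array 3 (0.23 and 0.11). Without 72 h array 1 CD151 was not called at 72 h (0.085), and its 24 h call was lost under 14 of 23 alternatives, which include leaving out any vehicle, 8 h or 24 h array or 72 h array 2. Of 7 proteases, ligands and receptors linked to matriptase, 1 was higher at 24 and 72 h (14.3%, against 2.47% and 3.86% of all genes). It was KLK5, a serine protease of the kallikrein family, higher by 0.94 and 1.05 (adjusted p = 6e-05 and 1.3e-05), and it averaged 1008 ± 99.8 in vehicle, 1172 ± 129 at 8 h, 1939 ± 92.6 at 24 h and 2095 ± 169 at 72 h.

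Transcription factors that repress CDH1 or mark epithelium were read from a list of 17, of which 9 were tested. This list too was chosen with earlier results of these data known. Of the 9, 1 was called at 8 h, 3 at 24 h and 3 at 72 h (11.1%, 33.3% and 33.3%, against 0.780%, 4.08% and 6.84% of all genes). The repressor genes SNAI1, SNAI2, ZEB1, ZEB2 and TWIST1 were all under the filter, their highest group mean being 154, for TWIST1 in vehicle. TCF3 and TCF4, E-box factors that can also repress CDH1, were above it and did not pass: TCF3 averaged 1106 in vehicle, 987 at 8 h, 980.1 at 24 h and 1179 at 72 h, and TCF4 616, 598, 516 and 482 in the same order. ELF3, an epithelial ETS factor, was higher at 8, 24 and 72 h by 0.54, 0.41 and 0.46 (adjusted p = 0.0078, 0.018 and 0.0058). KLF4, a factor of epithelial differentiation, was lower by 0.82 log2 units at 24 h and 0.97 at 72 h (log2 differences -0.82 and -0.97, adjusted p = 0.0050 and 0.00092), and OVOL2, a zinc-finger factor that keeps cells epithelial, was lower at the same times (-0.49 and -0.42, adjusted p = 0.0056 and 0.012). Averaged over its probe sets, OVOL2 did not pass at 24 h (adjusted p = 0.82) or 72 h (0.33), nor did KLF4 at 24 h (0.088). OVOL2 was also not called at 72 h without vehicle array 1 or 2 (0.056 each). ELF3 was not called at 8 h or 24 h without vehicle array 1 (0.068 and 0.11), at 8 h without 8 h array 2 (0.053), or at 24 h without vehicle array 3 (0.059) or 24 h array 1 (0.083) or 2 (0.053). Of 8 mesenchymal genes tested, only FN1, the fibronectin gene, passed, at 72 h alone (12.5%, against 6.84% of all genes either way and 3.86% higher). FN1 averaged 2595 ± 1492 at 72 h against 592 ± 382 in vehicle (2.11 log2 units, adjusted p = 0.015 in limma). The FN1 call was lost without the first 72 h array (0.088) or vehicle array 2 (0.067) or 3 (0.074).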

How the data were processed

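OVCAR3 RNA was profiled on 12 U133A arrays (4 groups of 3) and 4 U95 arrays. The deposited values are MAS5 intensities, per the submitters' processing notes, computed by the authors; the MAS5 version is not given in the sources used here. Probe sets were named through the platform annotation: 19071 of 22283 U133A probe sets named 1 gene, 1043 several and 2169 none. Values were tested as log2(intensity + 15.833), the pseudocount being the 10th percentile of all values, so fold changes of dim genes are understated. All 12 arrays were fitted in 1 model with limma 3.58.1 in R 4.3.3 (lmFit, eBayes with trend, 8 residual degrees of freedom) on 7178 genes, with Benjamini-Hochberg adjustment over all of them and a threshold of 0.05. The script was tested on simulated data. The replicates come from 3 independent experiments; their number limits the precision. U95 ratios used a pseudocount of 13.87 and have no test.

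Members and gene lists were chosen with earlier results of these data known. Full values are given for members past the threshold against vehicle and the 2 with the lowest F test p in each class; other listed genes are named where past the threshold.

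Each result was recomputed under 23 alternatives (22 for the F test, which takes all groups, and for KLF4): pseudocounts, filters, normalizations, probe set rule, replicate block, samples fitted, array weights, variance trend and each array left out. The main counts come from the fit by group alone, with the replicate block as an alternative. Same-numbered samples had correlated deviations (over 0.1 in all 3 pairs) for 24 h with 8 h (0.111 to 0.155) and 72 h with 24 h (0.105 to 0.188). In the other comparisons at most 2 pairs were over 0.1, those of 72 h with 8 h running from 0.0547 to 0.264. Such weak correlations do not settle whether the samples are paired. The pairing used in the block comes from the replicate numbers of the sample titles.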

Additional observations from a re-analysis of the deposited data

Results flagged for a closer look

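Both results that stood out differ between times of treatment. CDH1 was higher at 72 h than at 8 h by 0.44 log2 units (SE 0.11, adjusted p = 0.037 in limma), and CLDN10 was higher at 72 h than at 8 h by 0.71 (SE 0.12, adjusted p = 0.0036), so that the difference from vehicle of each gene was larger at the later time by the test of that difference. The CLDN10 difference kept its call in all 23 alternatives and lay between 0.59 and 0.81, and the CDH1 difference lay between 0.37 and 0.49 and kept its call in 11 of 23.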

How the results depend on the processing

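CDH1 at 24 and 72 h and CLDN10, GJA1 and PKP2 at 72 h passed against vehicle under all 23 alternatives. The number of junction genes past the threshold at 8 h moved to 1 with all probe sets of a gene averaged, with the replicate block and with only the groups compared. At 24 h it moved to 5 with the block and with array weights. At 72 h, where it was 5, it was 7 with the block. It was 4 there without a filter, with quantile normalization, with array weights and without the variance trend. Between 24 h and 8 h it moved to 2 with the block and to 1 with a filter at the 60th percentile, with only the groups compared and with array weights. Between 72 h and 8 h it moved to 1 without a filter, with quantile normalization, with the mean of probe sets and without the variance trend. The block also raised the calls over all 7178 genes, from 56 to 88 at 8 h, 293 to 422 at 24 h and 491 to 657 at 72 h. Between 24 h and 8 h they rose from 43 to 91, and between 72 h and 8 h from 179 to 293. Counts over all genes under the other settings are not given here. Leaving out 1 array at a time, the junction gene counts ran from 2 to 4 at 24 h and 4 to 6 at 72 h. They ran from 0 to 1 between 24 h and 8 h, 1 to 2 between 72 h and 8 h and 3 to 5 for the F test. The count of 4 at 24 h came without 72 h array 3, the 1 between 24 h and 8 h without 72 h array 1 or 3, and the 1 between 72 h and 8 h without vehicle array 1, 8 h array 1 or 3, 24 h array 1 or 72 h array 1 or 3. Under the block, which is not a pairing the labels state, the calls gained against vehicle were TJP1 at 8 h and 24 h (adjusted p = 0.0087 and 0.0070), CLDN3 and GJA1 at 24 h (0.015 and 0.043) and DSC2 and SPINT2 at 72 h (0.039 and 0.050), and DSC2 passed between 72 h and 8 h (0.027). Leaving out 72 h array 2 brought TJP1 at 24 h (0.037) and CLDN16 between 72 h and 8 h (0.041) past the threshold, 72 h array 1 CLDN3 at 24 h (0.027), 72 h array 3 CLDN3 and GJA1 at 24 h (0.043 and 0.044), and 8 h array 2 DSP between 72 h and 8 h (0.039). TJP1 also passed in limma with only the groups compared at 8 h and 24 h (adjusted p = 0.05 and 0.042). With array weights it passed at 24 h (0.033). The F test of TJP1, not past in the main fit (0.10), passed with probe sets averaged (0.014) and with the block (0.007). It also passed with array weights (0.05) and without 72 h array 2 (0.042). Small uncalled differences changed sign. VCL at 8 h became 0.18 with the mean of probe sets and -0.14 to 0.05 with an array left out. DSP at 8 h became -0.03 with quantile normalization and -0.09 to 0.07 with an array left out, and EPCAM at 72 h -0.06 and -0.08 to 0.04 in the same settings. PKP2 between 72 h and 24 h became 0.34 with the mean of probe sets, 0.03 with array weights and -0.14 to 0.10 with an array left out. With 1 array left out, CLDN10 at 8 h ran from -0.07 to 0.07, GJA1 between 24 h and 8 h from -0.14 to 0.02 and CDH1 between 72 h and 24 h from -0.03 to 0.08. The cause was not tested. CDH2, CDH16, DSC3 and CLDN5 lay under the signal filter and were not tested in the fit reported.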
